A study of Mus musculus with 2 samples.

Results

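The 45 genes described here encode proteins that copy DNA and separate chromosomes, and their promoters were examined for histone H3 trimethylated at lysine 4 (H3K4me3) in MEL cells. They were taken by symbol from the mouse GENCODE M21 annotation and make up 45 of its 21938 protein-coding genes on chromosomes 1 to 19, X and Y. Of the 45, 31 act in DNA replication and 14 in mitosis. MEL is an immortalized mouse erythroleukaemia line, described in the labels as a leukaemia counterpart of the human K562 line. The study holds 1 group, with no treatment, time course or second condition: H3K4me3 chromatin immunoprecipitation followed by sequencing, in 2 libraries numbered as biological replicates 1 and 2. Both libraries name the same cell sample, with fragments selected at 150 to 350 bp, so the spread between them may be technical. Age is given as unknown and sex as not collected.

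Before S phase, the origin recognition complex (ORC), CDC6 and CDT1 load the MCM helicase onto DNA, and CDC45 and the GINS complex then turn it into a working helicase. Polymerases, the clamp PCNA, its RFC loaders and the ligase follow at the fork, and ribonucleotide reductase and thymidylate synthase supply the deoxynucleotides. In mitosis the Aurora and Polo kinases drive chromosome alignment, and the spindle checkpoint holds back the activator CDC20 until every kinetochore is attached. Many G1/S genes are known targets of E2F factors, and many G2/M genes carry a cell cycle genes homology region (CHR), an element bound by the MuvB core complexes. H3K4me3 is a mark of promoters, placed around transcription starts and commonly low over the start itself, where nucleosomes are depleted.

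A gene was called marked where a peak of the deposited replicated list lay within 1000 bp of any of its transcript starts. The replicated list held 37387 peaks with a median width of 603 bp, against 51790 peaks (405 bp) for replicate 1 alone and 41508 (481 bp) for replicate 2 alone. The lists give no read counts, so sequencing depth is unknown and no counting error can be attached to a peak. The cell label was checked against markers: 7 of 7 genes chosen to mark the line were marked, namely the erythroid genes Gata1, Klf1, Tal1, Nfe2, Epor and Tfrc and the myeloid factor gene Spi1, known to be active in erythroleukaemia lines, and 0 of 9 genes of other cell types (Alb, Ttr, Cd3e, Myod1, Snap25, Pou5f1, Nanog, Cdh5 and Krt5). In a bulk culture, a mark on fewer cells and less mark per cell cannot be told apart.

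All 45 genes were marked in the replicated list, as were 50.3% of all protein-coding genes (11037 of 21938). All 45 also had a start-site peak in both replicate lists, against 50% of all protein-coding genes. Because every gene of both classes was marked, the classes are compared below by the strength, width, position and sharing of their peaks rather than by presence.

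Promoter sequence was available in the RefSeq promoter table (build GRCm38.p6) for 38 of the 45 genes, 26 of replication and 12 of mitosis. Incenp, Gins2, Gins4, Mcm4, Pole, Aurkb and Gins1 had no entry. The table gives 250 bases before to 50 after each start, and each window was searched on both strands for the E2F words TTTCGCGC, TTTGGCGC, TTTCCCGC and TTTGCCGC, the CHR words TTTGAA and TTCGAA, the word CCAAT and the ETS word CCGGAAGT. Replication promoters are shown for the helicase subunits Mcm5 and Mcm6, the origin subunit Orc1 and the clamp loader Rfc3, since each holds an E2F word, drawn in capitals. Mcm5 and Mcm6 each hold a pair of E2F words on opposite strands that overlap, so their capitals run together. Each sequence runs 5′ to 3′ from 160 bases before to 30 after the start, and a word on the opposite strand is printed as its reverse complement. The RefSeq starts of the 8 genes printed here and next lay 0 bp (Top2a) to 60 bp (Mcm5) from their 5′-most GENCODE start. Among all 38 genes searched, this distance was largest at Mcm7 (539 bp), Cdc6 (350 bp) and Fen1 (224 bp). At Lig1 the RefSeq start lay 1651 bp from the GENCODE start nearest the summit of its peak. The searched window is thus not at the marked start in every gene.
Mcm5 (chr8:75109349-75109538, plus strand): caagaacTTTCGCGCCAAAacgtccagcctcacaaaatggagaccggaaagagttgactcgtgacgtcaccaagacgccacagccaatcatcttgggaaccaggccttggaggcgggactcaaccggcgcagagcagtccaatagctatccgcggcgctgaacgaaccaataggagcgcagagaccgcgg
Mcm6 (chr1:128359676-128359865, minus strand): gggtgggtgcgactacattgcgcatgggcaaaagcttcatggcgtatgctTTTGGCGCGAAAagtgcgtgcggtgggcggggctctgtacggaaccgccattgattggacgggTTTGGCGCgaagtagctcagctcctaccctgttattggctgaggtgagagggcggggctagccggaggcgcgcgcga
Orc1 (chr4:108579294-108579483, plus strand): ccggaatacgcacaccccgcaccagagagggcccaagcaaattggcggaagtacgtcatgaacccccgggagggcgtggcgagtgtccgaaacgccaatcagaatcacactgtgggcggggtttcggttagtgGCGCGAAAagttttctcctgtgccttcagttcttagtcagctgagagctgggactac
Rfc3 (chr5:151651179-151651368, minus strand): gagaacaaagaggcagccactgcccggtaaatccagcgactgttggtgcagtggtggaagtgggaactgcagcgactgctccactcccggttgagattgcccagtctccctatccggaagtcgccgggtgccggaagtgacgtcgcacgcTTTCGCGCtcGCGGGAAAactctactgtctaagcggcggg

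Mitotic promoters are shown for the topoisomerase Top2a, the proliferation antigen Mki67, the spindle motor Kif11 and the checkpoint target Cdc20, since each holds a CHR word, drawn in capitals. The windows and the build are the same. In Kif11 and in the Top2a copy nearest the start, the CHR word lies on the opposite strand and reads TTCAAA as printed.
Top2a (chr11:99024160-99024349, minus strand): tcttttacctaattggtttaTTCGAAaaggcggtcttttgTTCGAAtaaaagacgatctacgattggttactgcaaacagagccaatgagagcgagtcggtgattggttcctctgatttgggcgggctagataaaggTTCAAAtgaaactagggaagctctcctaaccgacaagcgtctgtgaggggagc
Mki67 (chr7:135716350-135716539, minus strand): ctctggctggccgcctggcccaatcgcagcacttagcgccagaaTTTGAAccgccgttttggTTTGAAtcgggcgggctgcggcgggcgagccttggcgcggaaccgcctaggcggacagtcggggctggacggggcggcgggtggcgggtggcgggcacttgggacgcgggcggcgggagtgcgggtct
Kif11 (chr19:37376222-37376411, plus strand): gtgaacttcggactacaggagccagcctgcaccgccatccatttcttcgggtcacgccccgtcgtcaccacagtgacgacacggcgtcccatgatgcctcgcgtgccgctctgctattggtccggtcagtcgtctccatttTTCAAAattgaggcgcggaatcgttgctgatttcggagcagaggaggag
Cdc20 (chr4:118437314-118437503, minus strand): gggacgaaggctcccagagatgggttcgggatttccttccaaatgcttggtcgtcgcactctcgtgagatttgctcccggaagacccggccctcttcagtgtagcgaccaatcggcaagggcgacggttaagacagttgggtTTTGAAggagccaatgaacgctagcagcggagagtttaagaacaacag

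The E2F words were found in 11 of the 26 replication promoters (42.3%) and 0 of the 12 mitotic promoters, against 2.32% of all 27025 promoters in the table and 4.45% of the promoters of marked protein-coding genes. The replication genes with one were Cdc6, Cdt1, Gins3, Mcm3, Mcm5, Mcm6, Mcm7, Orc1, Pola1, Pold1 and Rfc3, most of them licensing and helicase genes. Positions are counted from 1 at the first transcribed base, with negative numbers before it, and refer to the leftmost base of a word as printed. In Orc1 the word began at -27, in Mcm5 at -153 and -149, in Mcm6 at -110, -106 and -47, and in Rfc3 at -10 and 1. A match is a description of these letters and says nothing about binding.

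The CHR words showed the opposite distribution. They were found in 10 of the 12 mitotic promoters (83.3%) and 6 of the 26 replication promoters (23.1%), against 19.4% of all promoters and 13.5% of those of marked genes. Mad2l1 and Birc5 were the 2 mitotic genes with none in the window. The word began at -18 in Cdc20, at -19 in Kif11, at -116 and -98 in Mki67, and at 17 in Cenpa, the centromeric histone. Top2a had 4 copies, at -179, -140, -120 and -23, of which the first lies outside the stretch printed above. Mcm7, Rfc3 and Gins3 held both an E2F and a CHR word.

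CCAAT was common to both classes, in 20 of 26 replication promoters (76.9%) and 10 of 12 mitotic promoters (83.3%), against 37.9% of all promoters and 39.5% of those of marked genes. The ETS word was found in 5 replication promoters and 1 mitotic promoter, against 4% of all promoters and 9.55% of those of marked genes. Median GC content was 57.3% in the replication and 58.3% in the mitotic promoters, below the 61.3% of marked genes and above the 52.7% of all promoters. The observed over expected ratio of CpG was 0.886 and 0.878 in the 2 classes, 0.784 in marked genes and 0.389 in all promoters.

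**Figure D1:**
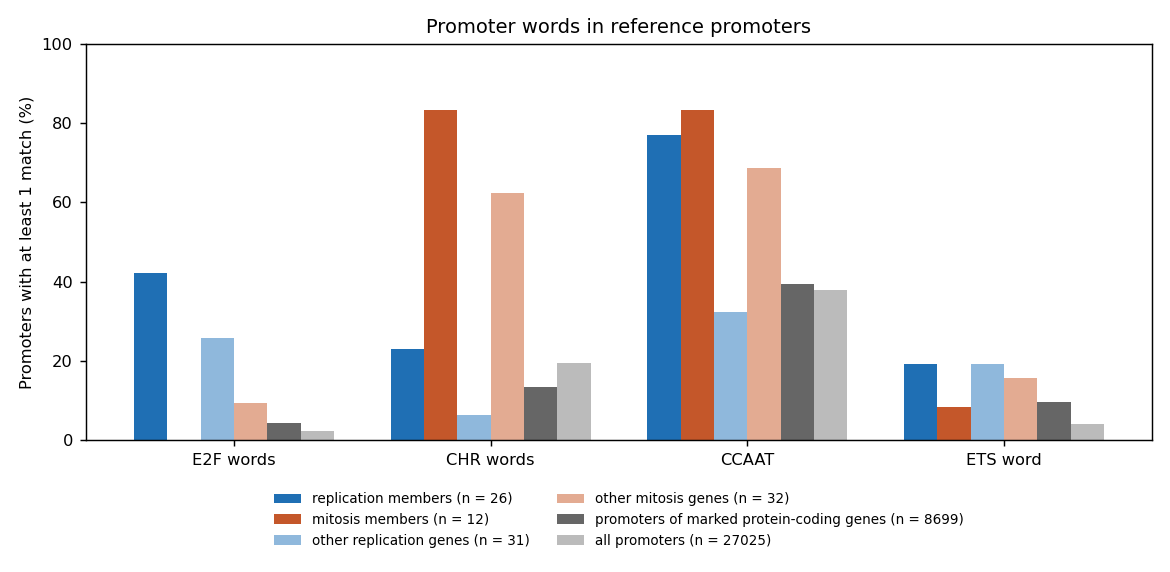
Share of promoters holding each word, in percent of promoters, for replication members, mitosis members, the other genes of both processes, marked protein-coding genes and all promoters in the table. E2F words are in 42.3% of replication and 0 of 12 mitotic promoters, and CHR words in 23.1% and 83.3%.

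The same words were counted in other genes of both processes, such as further origin, clamp loader, condensin and kinesin genes. Among 31 other replication genes with a promoter entry, 8 held an E2F word (25.8%) and 2 a CHR word (6.45%). Among 32 other mitosis genes, 3 held an E2F word (9.38%) and 20 a CHR word (62.5%). The other mitosis genes held CCAAT in 22 promoters (68.8%), and the other replication genes in 10 (32.3%). The E2F and CHR shares were thus ordered as in the 45 genes, while the high CCAAT share of the replication members was not seen in the other replication genes.

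The strength of the mark was taken from the signal value that the deposited list gives each peak. No source used here defines that value, so it was used only to rank genes within 1 list. Each gene takes the signal of its strongest start-site peak, and its percentile is its place among all marked protein-coding genes of that list, with 100 the strongest. The 31 replication genes had a median percentile of 23.0, with the middle of the distribution between 14.3 and 42.0 (lower and upper quartiles). The 14 mitosis genes had a median of 58.1, with quartiles of 44.2 and 67.9. Below the 25th percentile lay 17 replication and 2 mitosis genes, and above the 50th lay 5 replication and 9 mitosis genes. The replication values moved with the library. In replicate 1 their median was 43.3, with 8 genes below the 25th and 14 above the 50th percentile, and in replicate 2 it was 17.4, with 20 and 3. The mitosis median was 60.8 in replicate 1 and 61.4 in replicate 2.

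The wider lists of other genes differed less, and their order depended on the list. In the replicated list the 37 other replication genes had a median signal percentile of 43.3 and the 38 other mitosis genes 38.5, so the mitosis genes were the lower. In both replicate lists they were the higher, at 63.6 against 61.0 in replicate 1 and 32.6 against 29.3 in replicate 2.

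**Figure D2:**
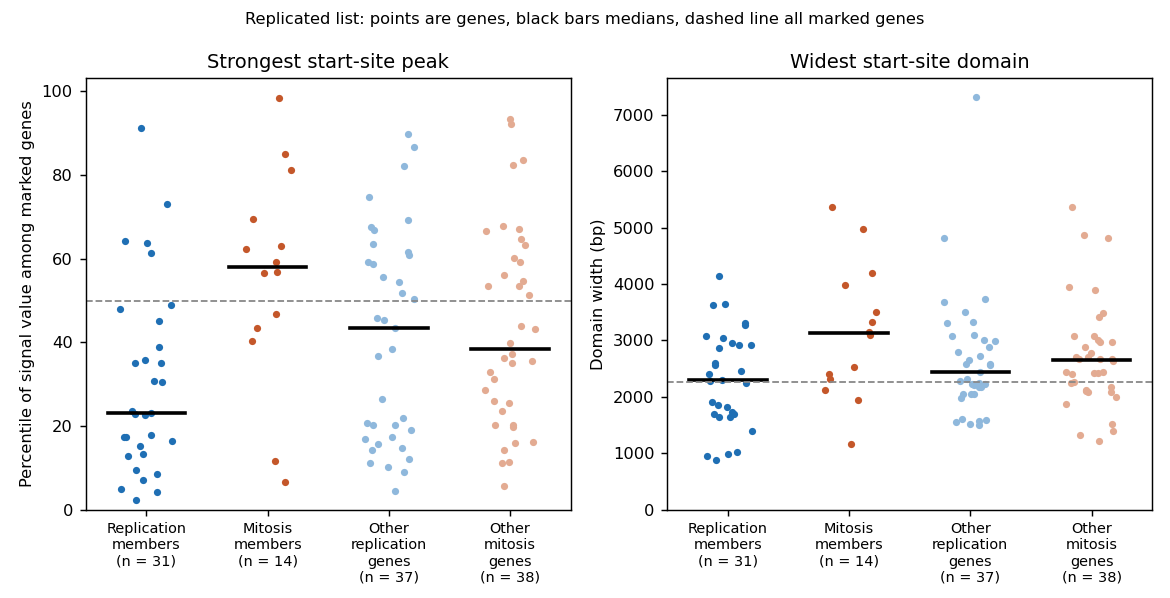
Signal percentile (left) and domain width in bp (right) in the replicated list for replication members, mitosis members and the other genes of both processes, with 1 point per gene, a black bar at each median and a dashed line at the median of all marked genes. The median signal percentile is 23.0 for replication and 58.1 for mitosis members, and the points of the classes overlap.

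The 4 strongest members were the checkpoint kinase Bub1b, the GINS subunit Gins1, Cenpa and the Polo kinase Plk1. Bub1b had a signal of 26.1 in the replicated list, at percentile 98.3, and stood at percentile 99.3 in replicate 1 and 63.2 in replicate 2. Cenpa had a signal of 19.3 (percentile 85.1), with 85.7 and 84.0 in the replicates. Cenpa ranked alike in both libraries, while Bub1b was near the top of replicate 1 and lower in replicate 2. Gins1 had a signal of 21.2 (percentile 91.3), from a peak also at the start of the neighbouring gene Abhd12. Gins1 stood at 35.4 in replicate 2, while its 71.0 in replicate 1 belongs to another peak, at internal starts. Plk1 had a signal of 18.4 (percentile 81.2), with 44.7 and 17.9, and ranked higher in the replicated list than in either replicate.

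The 4 weakest members were Rfc3, the catalytic subunit Pola1 of the priming polymerase, the large reductase subunit Rrm1, and Cdc20. Rfc3 had a signal of 4.59 (percentile 2.35), with 2.60 in replicate 1 and 4.64 in replicate 2, and was low in all 3 lists. Pola1 had a signal of 5.82 (percentile 4.30), with 32.5 and 8.38 in the replicates. Cdc20 had a signal of 6.81 (percentile 6.48), with 7.45 and 13.1. Rrm1 had a signal of 6.17 (percentile 5.04), but stood at 96.4 in replicate 1 and 7.16 in replicate 2. Rrm1 was thus among the strongest genes of one library and the weakest of the other.

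By role, the 17 licensing and helicase genes had a median signal percentile of 30.6, the 11 fork synthesis genes 23.0 and the 3 deoxynucleotide genes 8.50. All 3 medians were higher in replicate 1, at 50.7, 31.6 and 18.1, than in replicate 2, at 21.1, 17.4 and 10.9. On the mitotic side, the 6 kinases and passenger proteins stood at 45.1, the 4 checkpoint genes at 66.3 and the 4 genes of chromosome, centromere and motor at 58.1. Their medians were 45.9, 65.6 and 64.9 in replicate 1 and 42.9, 65.9 and 67.7 in replicate 2. Subunits of 1 complex could stand far apart in the replicated list. The 4 GINS genes, whose proteins form a single ring-shaped complex, ran from 7.05 (Gins3) to 91.3 (Gins1). The Gins1 value is that of a peak also at the start of the neighbouring gene Abhd12, with its summit 1042 bp upstream of Gins1. The peak over the Gins1 start itself had a signal of 12.1, against 21.2. The next highest GINS gene was Gins2, at 63.6. The 6 MCM genes ran from 13.4 (Mcm7) to 64.3 (Mcm6) with a median of 23.3. The 3 ORC genes among the members ran from 34.99 (Orc6) to 48.9 (Orc2). Of the ORC genes outside the members, Orc3 stood at 55.6, Orc4 at 60.8 and Orc5 at 36.7.

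Width was measured on domains, made by merging replicated peaks across gaps of up to 1000 bp and taking the widest merged stretch at each gene. The replication genes had a median domain of 2297 bp (quartiles 1700.5 and 2936.5 bp) and the mitosis genes 3126 bp (quartiles 2330.8 and 3863.2 bp), against 2258 bp over all marked genes. In replicate 1 the medians were 2577 and 3234.5 bp, and in replicate 2 they were 2307 and 3111.5 bp. The gap between the classes was wider than the shift of either median between the libraries. Among the widest 25% of all marked genes were 7 replication and 8 mitosis members, with 6 and 7 in replicate 1 and 4 and 9 in replicate 2. The other lists differed less, at 2440 bp for replication and 2650 bp for mitosis. Single strongest peaks had median widths of 1187 bp in replication members, 1479.5 bp in mitosis members and 1369 bp in all marked genes. In replicate 1 these were 1284, 2000 and 1163 bp, and in replicate 2 they were 1194, 2193.5 and 1460 bp. The mitosis median was thus the highest in all 3 lists. The replication median was below that of all marked genes in the replicated list and replicate 2 but above it in replicate 1.

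The widest domain belonged to Mki67, at 5370 bp (chr7:135712100-135717469), with 6051 bp in replicate 1 and 5050 bp in replicate 2. Cenpa followed at 4969 bp (chr5:30665648-30670616), with 5066 and 4940 bp. Kif11 had 4190 bp (chr19:37375060-37379249), with 4192 and 4245 bp. These 3 are mitotic genes, each with a wide domain in both libraries. Rrm1 was the widest replication gene at 4144 bp (chr7:102440746-102444889), with 3977 and 2681 bp. Its domain was made of 4 peaks that covered 69.6% of its length.

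The 4 narrowest domains were at fork and helicase genes. Lig1, the ligase that joins Okazaki fragments, had 873 bp (chr7:13277870-13278742), with 952 bp in replicate 1 and 1724 bp in replicate 2. The Lig1 peak is also at the start of the neighbouring gene Zswim9. Its summit lay 42 bp from a Zswim9 start and 206 bp from the nearest Lig1 start, an internal one. Gins4 had 947 bp (chr8:23236693-23237639), with 1036 and 959 bp. Pold1, the catalytic subunit of the lagging-strand polymerase, had 983 bp (chr7:44547761-44548743), with 1041 and 899 bp. Prim1, the primase, had 1027 bp (chr10:128015210-128016236), with 1068 and 631 bp. Each of these 4 domains was a single peak. Bub1b, which had the highest signal of the 45, came next at 1159 bp, with 1522 bp in replicate 1 and 2600 bp in replicate 2. In replicate 2 its domain was thus wider than the median of all marked genes, which was 2228 bp there.

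**Figure D3:**
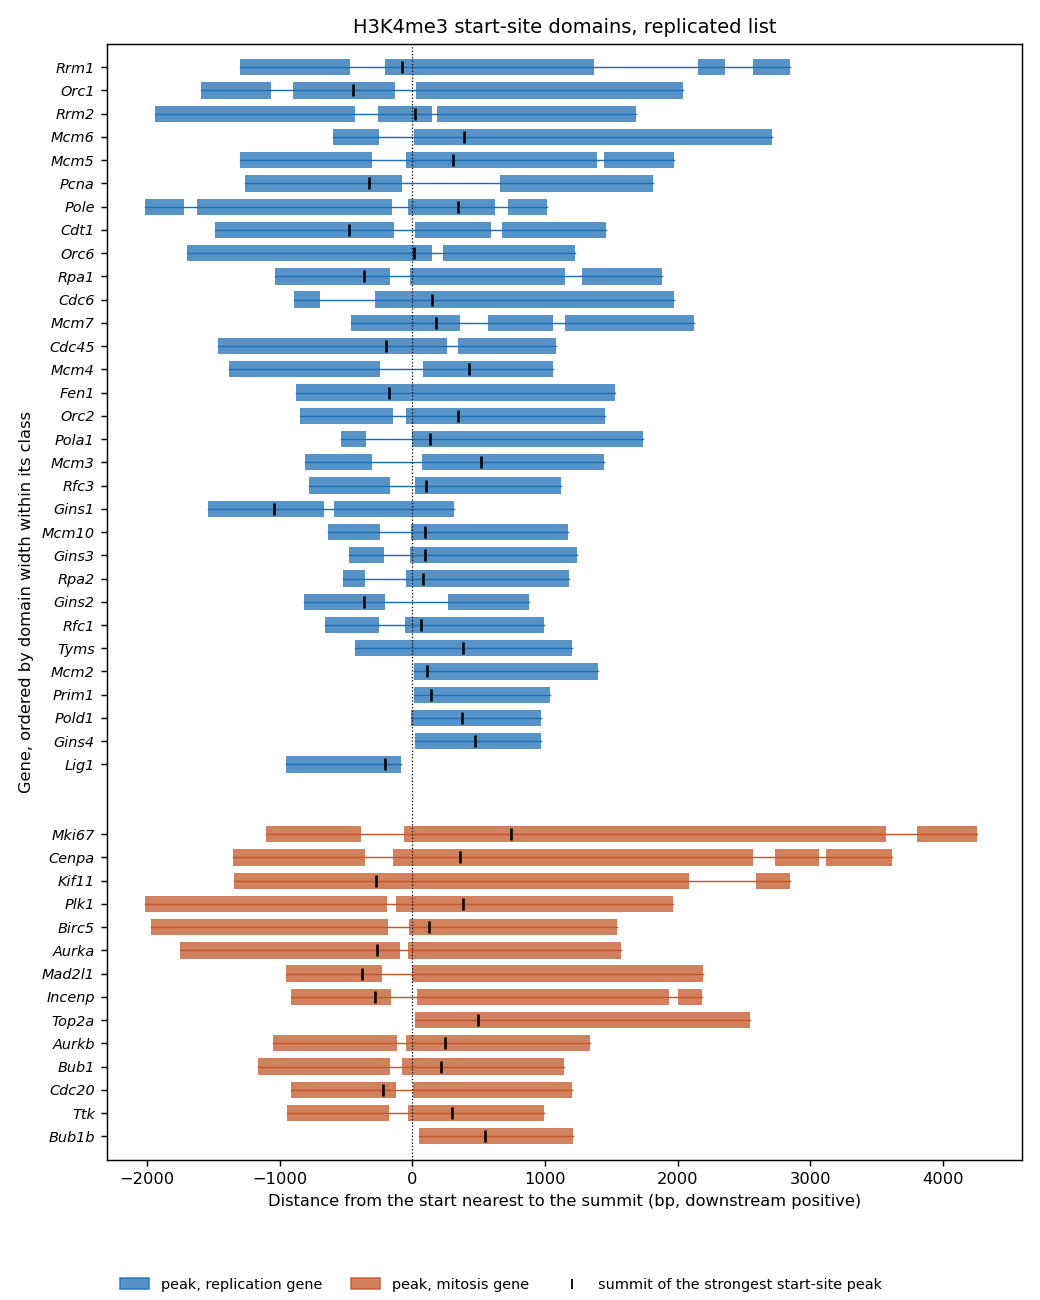
H3K4me3 domains of the 45 genes in the replicated list, drawn in bp from the start nearest the summit with transcription to the right; bars are peaks and ticks are summits. Mki67, at 5370 bp, is the widest and Lig1, at 873 bp and with a peak also at the start of Zswim9, the narrowest.

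By role, median domains were 2451 bp for licensing and helicase genes, 1900 bp for fork synthesis and 3628 bp for deoxynucleotide supply. In replicate 1 these were 2606, 2227 and 3977 bp, and in replicate 2 they were 2435, 1753 and 2681 bp. The mitotic kinases and passenger proteins had 3215 bp, the checkpoint genes 2214 bp and the chromosome, centromere and motor genes 4579.5 bp. Their medians were 3287, 2380 and 4629 bp in replicate 1 and 3074, 2862.5 and 4592.5 bp in replicate 2. The checkpoint median was below that of all marked genes in the replicated list (2258 bp) and in replicate 1 (2409 bp). In replicate 2 it was above that of all marked genes (2228 bp). Rrm2, the small reductase subunit, had a domain of 3628 bp, with 4784 and 3394 bp in the replicates. Its strongest peak was 406 bp wide in the replicated list, but 1496 and 1240 bp in the replicates. Tyms, which makes thymidylate, had a single peak of 1638 bp.

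The position of the mark was measured from the summit of the strongest peak to the nearest start, with positive values downstream. The summit lay downstream in 21 of 31 replication genes (67.7%) and 9 of 14 mitosis genes (64.3%), against 68.7% of all marked genes. In replicate 1 the counts were 21 and 13, against 65.8% of all marked genes, and in replicate 2 they were 22 and 10, against 70.1%. The mitosis count was thus high in replicate 1, with 92.9% of the genes. The median offset was 98 bp for replication, 230 bp for mitosis and 104 bp over all marked genes. In replicate 1 the class medians were 221 and 517.5 bp, and in replicate 2 they were 91 and 175.5 bp, so the mitosis median shifted more between the libraries than the classes differed in the replicated list. In the replicated list the other mitosis genes had a median of 85 bp and the other replication genes 122 bp, the reverse of the order in the members. The reversal was also present in replicate 2, at 87 and 106 bp, but not in replicate 1, at 368 and 271 bp.

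The largest downstream offsets were at Mki67, Bub1b, the helicase subunit Mcm3 and Top2a. Mki67 had 744 bp, with 771 and 736 bp in the replicates. Top2a had 492 bp, with 427 and 495 bp. Mcm3 had 520 bp, with 648 and 520 bp, and Bub1b 544 bp, with 543 and 231 bp. In all 4 genes the summit was downstream in both libraries.

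The largest upstream offsets were at Gins1, the licensing factor Cdt1, Orc1 and the checkpoint protein Mad2l1. Gins1 had -1042 bp, with -424 bp in replicate 2. Its summit in replicate 1 lay in another peak, 5083 bp from that of replicate 2 and 442 bp from an internal start, so it is not a position of the same peak. Cdt1 had -475 bp, with -731 and 286 bp. Orc1 had -450 bp, with 495 and -469 bp. Mad2l1 had -378 bp, with 165 and 137 bp. None of these 4 had an upstream summit in both libraries. The strongest peaks of the replicates did not overlap at Gins1, Cdt1 and Orc1, nor at Mcm7, Rfc3, Rpa1 and Cdc20. The offsets and signals of these 7 genes thus come from different peaks in the 2 libraries. They are 6 of 31 replication and 1 of 14 mitosis genes, and the share over all marked genes was not counted. The summits of the 2 replicates lay a median of 334 bp apart in replication genes and 301 bp in mitosis genes, against 304 bp over all genes marked in both. They were within 200 bp of each other in 10 of 31, 5 of 14 and 40.4%.

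The start farthest 5′ often lay in a gap between called peaks. It had a peak on each side in 17 of 31 replication genes (54.8%) and 6 of 14 mitosis genes (42.9%), against 30% of all marked genes. In the other lists this held for 21 of 37 replication genes (56.8%) and 20 of 38 mitosis genes (52.6%). In replicate 1 the counts were 20 of 31 and 10 of 14, against 49.6% of all genes, and in replicate 2 they were 15 of 31 and 4 of 14, against 22.2%. The gap had a median of 253 bp in replication genes, 146 bp in mitosis genes and 179 bp over all genes, and was widest at Pcna, with 733 bp. At Mcm2, Gins4, Pold1, Prim1, Lig1, Bub1b and Top2a the start had a peak on 1 side only. These are 15.6% of the members, against 7.92% of all marked genes.

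At least 2 start-site peaks were present at 24 of 31 replication genes (77.4%) and 11 of 14 mitosis genes (78.6%), against 67.7% of all marked genes. The domain reached farther downstream than upstream of the nearest start in 23 and 10 genes, against 65.4% of all. Mki67 reached 4262 bp downstream and 1108 bp upstream, and Cenpa 3619 and 1350 bp. Orc6, an origin subunit, reached 1227 bp downstream and 1699 bp upstream, on the side of its neighbour Vps35.

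Sharing was counted where the strongest peak also lay within 1000 bp of a start of another protein-coding gene. It was found at 10 of 31 replication genes (32.3%) and 1 of 14 mitosis genes (7.14%), against 24.1% of all marked genes. All 11 were head-to-head pairs, with the partner on the opposite strand and upstream of a start of the member, an arrangement found at 19.9% of all marked genes. At Lig1 that start is internal. The 5′-most Lig1 start lies at -1543 bp from it, and the starts of the partner Zswim9 lie between them. The other lists held 12 of 37 replication genes (32.4%) and 11 of 38 mitosis genes (28.9%), so the low count of the 14 mitosis members was not seen in the other mitosis genes. The replication count depended on the definition. It was 8 with a 500 bp window, 10 with a 2500 bp window and 7 where the other start had to lie inside the peak. The mitosis count was 1 in each. Shares over all marked genes are not given here for those definitions. In all 11 pairs the strongest peak of the member was also the strongest peak of its partner, so their signals are 1 value and cannot be assigned to either gene.

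The pairs differed in how close their starts lay. Orc6 and Vps35, a retromer subunit, had starts 11 bp apart at the nearest, and 25 bp apart for the closest head-to-head starts. Fen1, the flap endonuclease, lay 49 bp from Tmem258. Orc1 lay 87 bp from the splicing factor gene Prpf38a, and an internal start of Lig1 lay 105 bp from Zswim9. Rpa1, which binds single-stranded DNA, lay 109 bp from Smyd4. Pole, the leading-strand polymerase, lay 120 bp from Pxmp2. Cdc45 lay 140 bp from Ufd1 at the nearest, and 153 bp for the closest head-to-head starts. The kinase Aurka, the 1 mitotic case, lay 146 bp from Cstf1, which encodes a polyadenylation factor. Mcm7 lay 160 bp from Ap4m1, Mcm4 lay 466 bp from Prkdc, the DNA-dependent protein kinase, and Gins1 lay 659 bp from Abhd12. In each of the 11 pairs the distance was shorter than the shared peak.

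In the replicated list the summit was nearer the partner's start in 6 of the 10 replication pairs, those of Cdc45, Gins1, Orc1, Rpa1, Fen1 and Lig1, and in the Aurka pair. The same 10 pairs gave 5 in replicate 1 and 8 in replicate 2, and not the same genes. Cdc45, Lig1 and Aurka had the summit nearer the partner in all 3 lists. Mcm4 and Pole had it nearer the partner in both replicates but not in the replicated list, while Orc1 and Fen1 had it nearer the member in replicate 1 and Rpa1 in replicate 2. At Gins1 it lay 1042 bp from the Gins1 start and 289 bp from that of Abhd12 in the replicated list. At Mcm7, in the replicated list, it lay 176 bp from Mcm7 and 178 bp from Ap4m1, which does not separate the genes. Shared replication genes had a median signal percentile of 37.3 and a median domain of 2575.5 bp, against 17.4 and 1900 bp in the 21 with a peak of their own. With sharing called in each list, the percentiles were 50.6 (9 genes) and 37.9 (22 genes) in replicate 1 and 36.5 (10 genes) and 12.1 (21 genes) in replicate 2. The median offset was -189.5 bp in the shared genes, against 110 bp. The partner lies upstream, so a summit near its start has a negative offset by construction. Neither the contrast of shared and unshared peaks nor the nearer start was counted over all marked genes. These values thus cannot be read as particular to replication genes.

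**Figure D4:**
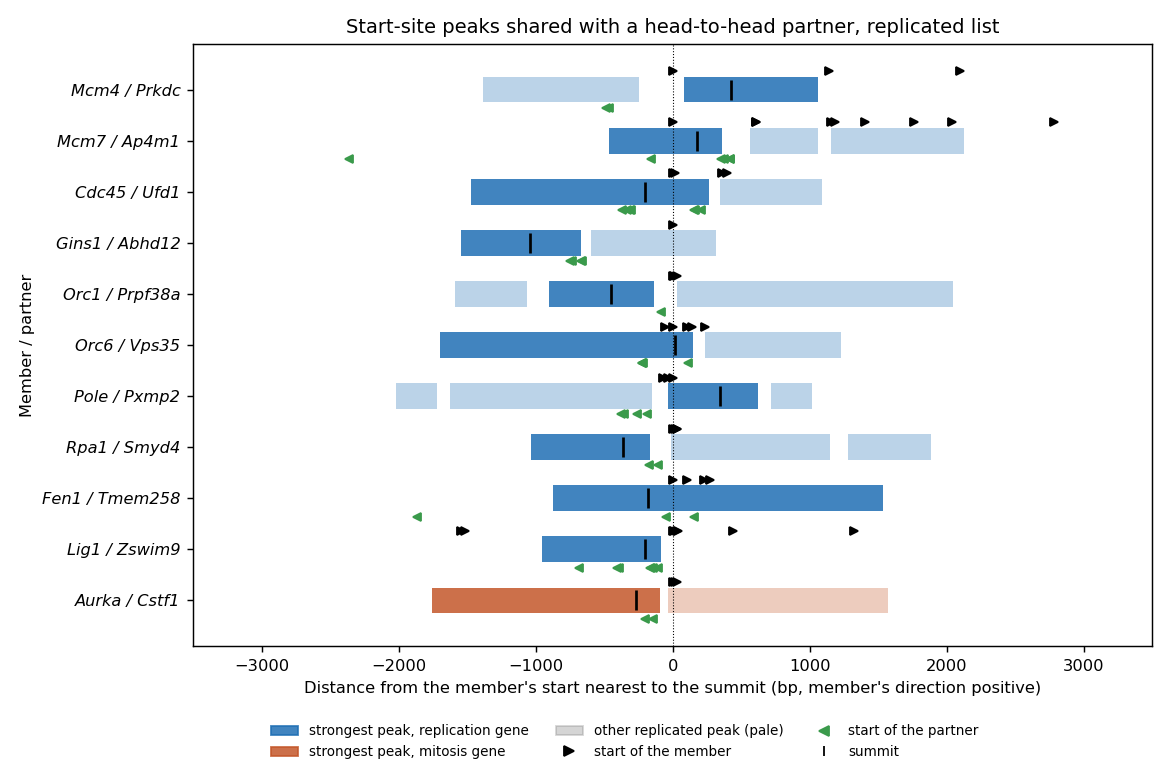
Shared peaks of the 11 head-to-head pairs in bp from the start of the member nearest the summit, with transcription of the member to the right; dark bars are the shared peaks, pale bars other replicated peaks, vertical marks the summits, and triangles the starts of member and partner. In 7 of the 11 pairs the summit lies nearer the partner in this list.

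In the replication genes the replicate lists differed mostly in 1 direction. The domain was wider in replicate 1 at 29 of 31 replication genes and 9 of 14 mitosis genes, against 66.9% of all genes marked in both lists. The exceptions in replication were Orc2 (2165 and 2982 bp) and Lig1. The median ratio of replicate 1 to replicate 2 was 1.19 in replication genes, 1.05 in mitosis genes and 1.05 over all genes. The largest ratio was at Mcm3, with 2577 and 1345 bp.

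Signal percentiles, each taken within its own list, showed a like split. They were higher in replicate 1 at 24 of 31 replication genes and 8 of 14 mitosis genes, against 47.4% of all genes marked in both. The median difference was 19.6 points in replication genes, 1.58 points in mitosis genes and -1.14 points over all genes. The MCM genes had a median of 55.8 in replicate 1 and 13.4 in replicate 2: Mcm3 stood at 87.2 and 14.4, Mcm5 at 61.0 and 8.38, and Mcm6 at 66.3 and 19.8. Mcm10, a helicase cofactor, stood at 96.6 and 22.4. Mcm2 was the exception among the MCM genes, at 21.5 and 28.0.

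**Figure D5:**
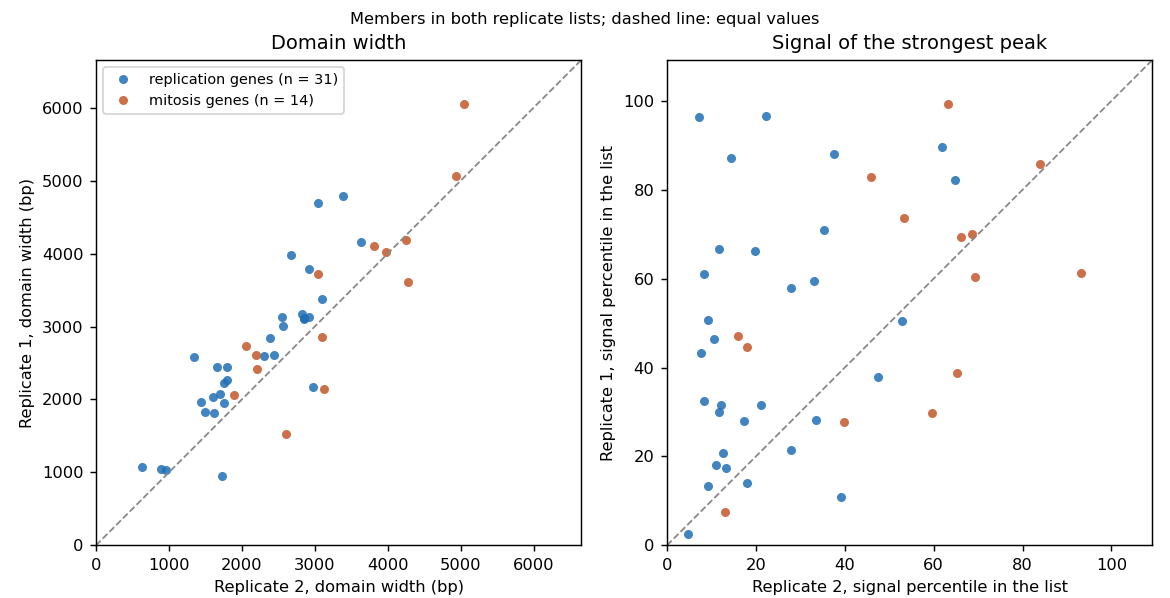
Replicate 1 (vertical) against replicate 2 (horizontal) for each of the 45 genes, as domain width in bp (left) and as signal percentile within each list (right); the dashed line marks equal values. Of the 31 replication genes, 29 have the wider domain in replicate 1 and 24 the higher signal percentile there.

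The median signal percentiles of the other genes of both processes were also higher in replicate 1 than in replicate 2. They were 61.0 and 29.3 for other replication genes and 63.6 and 32.6 for other mitosis genes. The shift in signal was thus not particular to the replication members. The 2 lists also differed as a whole, with a median start-site signal of 12.1 in replicate 1 and 15.5 in replicate 2 and a median strongest peak of 1163 and 1460 bp. The part of these differences in the members' values was not tested.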

How the data were processed

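Peak lists from H3K4me3 ChIP-seq of 2 MEL libraries, in the mm10 build per the labels, were used as deposited: 1 list per replicate, a pooled list and a replicated list. The authors' signal value per peak is a score. Its definition, the aligner, the peak caller and the rule for a replicated peak were not given in the sources used here. Each deposited list also gives −log10 p and −log10 q per peak and the summit as a distance from the peak start. All 37379 replicated peaks on the chromosomes recur in the pooled list with identical values, so signals in those 2 lists come from the pooled libraries. The mm9 list was not used, 1 marker gene of other cell types is not reported here for a reason unrelated to its values, and 8 replicated peaks on other contigs were left out.

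Peaks were joined to 93513 protein-coding starts of GENCODE M21 with Python 3.11.15, numpy 2.4.6 and pandas 2.3.3, with at least 1 bp of overlap with the window. Promoter words were searched in the RefSeq table, whose 27025 sequences all matched the GRCm38.p6 genome (pysam 0.24.0). Figures used matplotlib 3.10.9. The join was tested on simulated peaks. No test was run over genes: medians and counts stand beside those of all marked genes. The members and lists were chosen with earlier results of these data known. Named with full values were the 4 highest and 4 lowest members by width, signal and offset, every member with a shared peak, and the 2 widest of each other list. Replicate-specific examples and the genes whose promoters are printed were chosen after their values were seen. Alternatives were the window, the start, the q threshold, the list, the merging gap, the definition of sharing and the promoter window.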

Additional observations from a re-analysis of the deposited data

How the results depend on the processing

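All 45 members and, with the 5′-most start alone as the exception (72), all 75 other genes were marked under each alternative run. Of 92 alternative values, 73 moved by less than 1 SD of the replicate lists (counts by at most 1.5 times), 19 moved by more and 0 reversed. That SD comes from the 2 lists that also serve as alternatives, so the tally is not an independent measure of stability. Widths, percentiles and counts are never negative, so no change of sign was possible for them. With each replicate left out in turn, median domains ran from 2307 to 2577 bp (replication) and 3111.5 to 3234.5 bp (mitosis), signal percentiles from 17.4 to 43.3 and from 60.8 to 61.4, and offsets from 91 to 221 bp and from 175.5 to 517.5 bp. Without merging across gaps (gap of 0 bp), domains were 1348 and 1845 bp. The mitosis domain was 3002.5 bp with −log10 q of at least 5 and 3215 bp in the pooled list, and the mitosis signal percentile 59.0 with the 5′-most start alone and 57.4 with that q. From the 5′-most start and without shared peaks, the replication offset was 213 bp. Leaving out shared peaks, an alternative chosen after seeing the data, gave a replication domain of 1900 bp and a mitosis signal percentile of 56.9. The causes were not tested. The mitosis median was above the replication median in 11 of 11 settings for width (by 497 to 1201 bp), 8 of 8 for signal (by 17.5 to 44.0 points) and 8 of 8 for offset (by 76 to 296.5 bp). The settings reuse the same 2 libraries and several gave identical medians, so these tallies are no independent measure of stability either. In the other genes of both processes, the replicated list gave the reverse order for signal and offset. In 200 bases centred on the start, an E2F word was in 10 replication and 1 mitosis promoters, CHR in 4 and 11, and ETS in 2 and 0. No paired analysis was possible because there is 1 group. Depth is unknown, and 2 libraries of 1 cell sample give no measure of spread between cultures.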

Other observations

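The widest domains among the other genes of both processes varied between the libraries. Chaf1a, the large subunit of the chromatin assembly factor that places histones behind the fork, had a domain of 7321 bp in the replicated list and 7552 bp in replicate 1, wider than any of the 45 members there. In replicate 2 it had 3600 bp, less than Mki67 (5050 bp). Orc4, an origin subunit, had 4810 bp, with 5849 and 4719 bp in replicates 1 and 2, at a peak shared with Mbd5. Among mitosis genes, the condensin subunit Smc4 had 5368 bp, with 6476 and 5111 bp, at a peak shared with Ift80. The kinesin Kif18a had 4864 bp, with 4906 and 1995 bp, at a peak shared with Mettl15. Of these 4 genes, 3 share their peak with a neighbour, as do 24.1% of all marked genes. The 3 widest members do not. Counts from so few genes, picked for their width, cannot link width to sharing.

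Non-coding neighbours also lay at members' peaks. The strongest peak was within 1000 bp of a start of Gm10614 at Gins2, Gm15834 at Orc2, AV099323 at Pcna, Gm15489 at Plk1 and AC132253.4 at Incenp. These 5 genes are 11.1% of the members, against 15.6% of all marked protein-coding genes with such a neighbour. They were not counted as sharing, which was restricted to protein-coding partners.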
